A study of Saccharomyces cerevisiae with 16 samples.

Results

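Nuclear genes for proteins of the mitochondrial ribosome were followed through 4 fermentation conditions of a wine yeast. The members were all genes whose symbol on the array began with MRPL, MRPS, RSM or MRP and ended in a number. This name rule used no measured value and found 65 genes among 6248 measured features, with 1 probe for each gene. The members comprised 27 proteins of the small subunit, 37 of the large subunit, and MRP8, which carries a matching name but is no longer counted as a mitochondrial ribosomal protein. RSM28 was not analysed here. Mitoribosomal proteins with names of another form were kept as a separate list.

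The yeast was Saccharomyces cerevisiae EC1118, a commercial wine strain, and no sample carried a gene deletion or transgene. All cultures grew in a synthetic medium resembling grape must, with glucose at 200 g/L and assimilable nitrogen at 100 mg/L. Batch fermentors kept at 28 °C gave 4 stationary-phase samples, taken when 164 g/L of glucose remained. In a continuous fermentation through linked tanks, cells of the third tank, which had run out of nitrogen, were taken at the same residual glucose with nothing added (4 samples). The third tank was then fed ammonium (3 samples) or valine (3 samples), each supplying a further 100 mg/L of nitrogen. Within each continuous condition samplings were 24 h apart in a running culture. The p-values of every comparison rest on a spread pooled over the batch samples and these samplings. They do not measure the spread between separate continuous fermentations. A tank fed by earlier tanks and a batch fermentor differ in the history of their cells as well as in growth mode. The labels state neither the temperature of the tanks nor the residual glucose after feeding.

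Mitochondrial ribosomes translate the few messages of the mitochondrial genome, most of which encode membrane subunits of the respiratory chain and the ATP synthase. Nearly all of their proteins are encoded in the nucleus, made in the cytosol and imported, and many have a counterpart in the bacterial ribosome while others are found only in mitochondria. In yeast, many of the messages for mitochondrial ribosomal proteins are bound by Puf3, an RNA-binding protein that controls their stability, localisation and translation, whereas respiratory chain genes are activated by the Hap2/3/4/5 complex. Cytosolic ribosomal protein genes follow nutrient signals through other regulators.

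Levels are log2 intensities as deposited, and a difference of 1 on this scale is a doubling. Calls rest on 1 limma fit of the 14 samples and on p-values adjusted by Benjamini-Hochberg across the 6248 features, with 0.05 as the threshold. Array medians lay between 9.09 and 9.10, so every level is relative to the rest of its array, and a change in total mRNA would not be seen. The arrays lay on 2 slides that each held all 4 groups. Batch sample 1, ammonium sample 2 and valine sample 3 deviated together from their groups over all genes, with correlations between 0.31 and 0.65. They were not alone in this. Valine sample 2 correlated at 0.463 with batch sample 3 and at 0.408 with batch sample 4. In batch sample 1, ammonium sample 2 and valine sample 3 the shortest members lay above their group means by a median of 0.24, 0.10 and 0.10. The other genes of the same coding lengths lay above theirs by 0.13, 0.04 and 0.06. Results were therefore also computed without these 3 samples.

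The mitochondrial ribosomal protein genes were highest in the third tank without added nitrogen and lowest, in most cases, after valine. The median level over the 65 members was 9.66, 9.56, 9.51 and 9.55 in the 4 batch samples and 9.91, 9.96, 9.98 and 9.93 in the 4 samples without addition. With ammonium it was 9.51, 9.63 and 9.54, and with valine 9.42, 9.42 and 9.47. All samples without addition lay above all others, the 3 valine samples lay below all others, and the batch and ammonium samples overlapped. The group mean was highest without addition for 58 members, where 29.6% of all genes had their highest mean. It was lowest with valine for 45 members (22.2% of all genes). The exceptions at the top were MRP4, MRP13, MRPL11 and RSM26, with their highest mean in ammonium, and MRP20, RSM22 and RSM25, with theirs in batch. No member was highest with valine and none was lowest without addition.

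**Figure D1:**
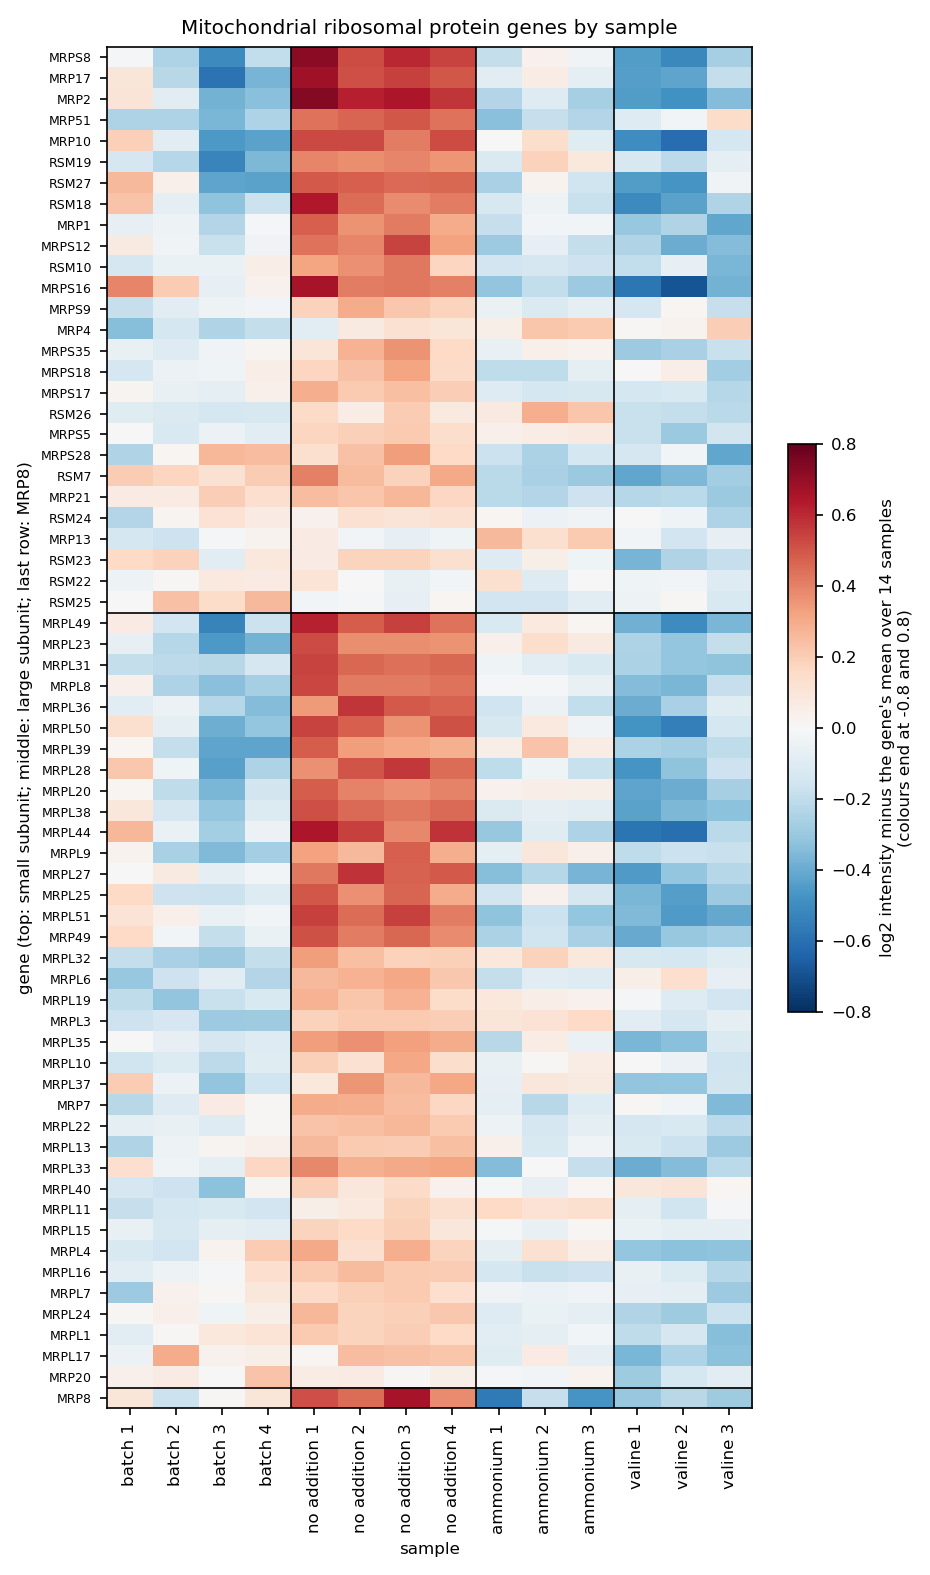
Heat map of the 65 members (rows, grouped as small subunit, large subunit and MRP8, each ordered by the change from batch to no addition) in the 14 samples (columns), coloured by the log2 deviation from each gene's mean over the 14 samples, with colours ending at 0.8 in either direction. Most members are high in the 4 samples without addition and low in the valine samples, and a few small subunit members do not follow.

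Between batch and the third tank without addition, 55 of the 65 members were higher without addition, against 30.3% of all genes, and 1 was lower, against 27.0%. The median log2 difference was 0.37 (quartiles 0.24 and 0.58), beside 0.02 over all genes. In 53 members every sample without addition lay above every batch sample, which held for 27.8% of all genes. In these bulk samples a higher level in every cell cannot be told apart from a larger share of cells with the transcript. Without the 3 samples that deviated together the median was 0.42 and 56 members were called in either direction. On slide 2 alone 48 members were called with a median of 0.37. On slide 1 alone, which held 1 array without addition, 28 were called with a median of 0.42.

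In the small subunit 19 of 27 members were higher without addition than in batch and 1 was lower, with a median log2 difference of 0.28. MRPS8, the counterpart of bacterial S8, had levels of 9.49, 9.26, 9.0 and 9.31 in batch and of 10.23, 10.03, 10.11 and 10.05 without addition. The groups did not overlap, and the difference of 0.84 ± 0.09 (SE; limma adjusted p = 3.06e-06) corresponded to 1.79-fold. MRP17, the counterpart of S6, rose by 0.83 ± 0.11 and MRP2, the counterpart of S14, by 0.82 ± 0.09. MRP51, whose product interacts genetically with the untranslated leaders of COX2 and COX3 messages, stood at 10.69, 10.69, 10.57 and 10.69 in batch and at 11.37, 11.40, 11.43 and 11.37 without addition. The groups were well apart, with an SD of 0.03 over the 4 samples without addition, and it rose by 0.74 ± 0.06 (adjusted p = 1.01e-07). MRPS12, a protein of the decoding centre, rose by 0.46 ± 0.07. MRP10, a small cysteine-rich protein imported through the disulfide relay of the intermembrane space, rose by 0.70 ± 0.13. Its batch samples spread from 8.54 to 9.19, the latter being batch sample 1.

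RSM25 was the member called lower without addition. It stood at 9.45, 9.69, 9.60 and 9.71 in batch and at 9.43, 9.44, 9.39 and 9.47 without addition. Batch sample 1 overlapped the other group, and the difference was -0.18 ± 0.06 (adjusted p = 0.0127), or 0.0589 with slide as a block. The 7 other small subunit members that did not pass the test were MRP13, MRP21, MRPS28, RSM7, RSM22, RSM23 and RSM24, with differences between -0.02 and 0.14.

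In the large subunit 35 of 37 members were higher without addition than in batch and none was lower, with a median log2 difference of 0.44. MRPL49, the counterpart of bacterial L21, stood at 9.66, 9.44, 9.06 and 9.42 in batch and at 10.21, 10.08, 10.14 and 10.03 without addition. The groups did not overlap, and it rose by 0.72 ± 0.10 (adjusted p = 2.1e-05). MRPL36 rose by 0.65 ± 0.08. MRPL32, whose precursor is cut by the m-AAA protease before it joins the ribosome, rose by 0.46 ± 0.05. MRP7, the counterpart of L27 near the peptidyl transferase centre, rose by 0.31 ± 0.08, and MRPL4 by 0.24 ± 0.07. The 2 members without a call were MRPL17, at 0.09, and MRP20, at -0.04 ± 0.06 (95% interval -0.16 to 0.08). MRP20 is the counterpart of L23 at the exit of the peptide tunnel. MRP8, the member set apart, rose by 0.49 ± 0.09.

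Members found only in mitochondria and members with a bacterial counterpart did not follow the subunits in one way. In the small subunit, 14 of 17 members with a bacterial counterpart rose from batch to no addition (median 0.34), and 5 of 10 mitochondria-specific members rose and 1 fell (median 0.17). In the large subunit the counts were 22 of 23 (median 0.33) and 13 of 14 (median 0.47). The difference between these classes was not tested. Mitochondria-specific members tended to have longer coding sequences than the others in the small subunit and shorter ones in the large subunit. Coding length went with the size of the change across members, as given below, and was not separated from class here.

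With ammonium fed to the third tank, 54 of the 65 members were lower than without addition, against 35.5% of all genes, and 1 was higher, against 32.1%. The median log2 difference was -0.38 (quartiles -0.55 and -0.19), beside -0.02 over all genes. In 56 members every ammonium sample lay below every sample without addition, which held for 37.4% of all genes. The comparison shares the samples without addition with the one against batch, so a reversal of direction between them is not independent evidence. On slide 2 alone 55 members were called with a median of -0.41. On slide 1 alone, with 1 array in each group, 18 were called, all lower, with a median of -0.32.

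The small subunit had 21 of 27 members lower with ammonium than without addition and 1 higher, with a median of -0.40, and the large subunit had 32 of 37 lower with a median of -0.32. MRPL27, a large subunit protein, stood at 10.27, 10.43, 10.32 and 10.34 without addition and at 9.51, 9.62 and 9.48 with ammonium. The 3 ammonium samples lay below every sample without addition and also below the batch samples, of which the lowest was 9.77. The log2 difference from no addition was -0.81 ± 0.06 (adjusted p = 3.98e-08). MRPL51 fell by 0.76 ± 0.06, MRP2 by 0.85 ± 0.10 and MRP51 by 0.71 ± 0.06. MRP8 fell by 0.90 ± 0.09, the largest drop of the 65. The calls of MRPL32 (-0.12 ± 0.05, adjusted p = 0.0454) and MRPL4 (-0.19 ± 0.08, adjusted p = 0.0452) were near the threshold. MRPL32 did not pass without ammonium sample 1 or 3, batch sample 2 or 4, any valine sample or no-addition sample 1 or 2. The adjusted p in these fits lay between 0.0509 and 0.14. It was 0.0559 with slide as a block, 0.081 with replicate number as a block and 0.07 with only the 2 groups compared. After each sample's trend with coding length over all genes was removed, the difference of MRPL32 was -0.04 (adjusted p = 0.401). MRPL4 did not pass, with adjusted p between 0.0513 and 0.188, without ammonium sample 1 or 3, batch sample 3, any valine sample or no-addition sample 1, 3 or 4.

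MRP13, a mitochondria-specific small subunit protein, was the member called higher with ammonium. It stood at 9.91, 9.82, 9.78 and 9.81 without addition and at 10.10, 9.97 and 10.05 with ammonium, with no overlap. The difference was 0.21 ± 0.06 (adjusted p = 0.00634). RSM26, a protein with the fold of iron and manganese superoxide dismutases, did not pass the test at 0.07 ± 0.06. It passed without ammonium sample 1, with an adjusted p of 0.0434. The other members without a call were MRP4, MRP20, MRPL3, MRPL11, MRPL37, MRPL40, RSM22, RSM24 and RSM25, with differences between -0.22 and 0.11.

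With valine, 60 of the 65 members were lower than without addition, against 35.6% of all genes, and 0 were higher, against 32.3%. The median log2 difference was -0.51 (quartiles -0.77 and -0.32), beside -0.01 over all genes. In the same number of members, 60, every valine sample lay below every sample without addition, which held for 36.8% of all genes. The slides gave medians of -0.50 with 44 members called and -0.52 with 58 called. Without the 3 samples that deviated together, 59 were called with a median of -0.52. This comparison uses the same 4 samples without addition as the ammonium comparison, so their values are given side by side only.

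MRP2 stood at 9.68, 9.57, 9.59 and 9.52 without addition and at 8.50, 8.46 and 8.60 with valine. The groups were far apart, and the log2 difference of -1.07 ± 0.10 (adjusted p = 2.02e-07) was the largest among the members, a 2.10-fold lower level. MRPS16 fell by 1.03 ± 0.10, MRPS8 by 1.01 ± 0.10 and MRPL44 by 1.00 ± 0.12. In the small subunit 23 of 27 members were lower, with a median of -0.47, and in the large subunit 36 of 37, with a median of -0.52. The 14 mitochondria-specific members of the large subunit were all lower with valine than without addition, with a median of -0.77. Many of these 14 have short coding sequences, and length was not separated from class. The 5 members without a call were MRP4, MRP13, MRPL40, RSM22 and RSM25, with differences between -0.07 and 0.03.

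**Figure D2:**
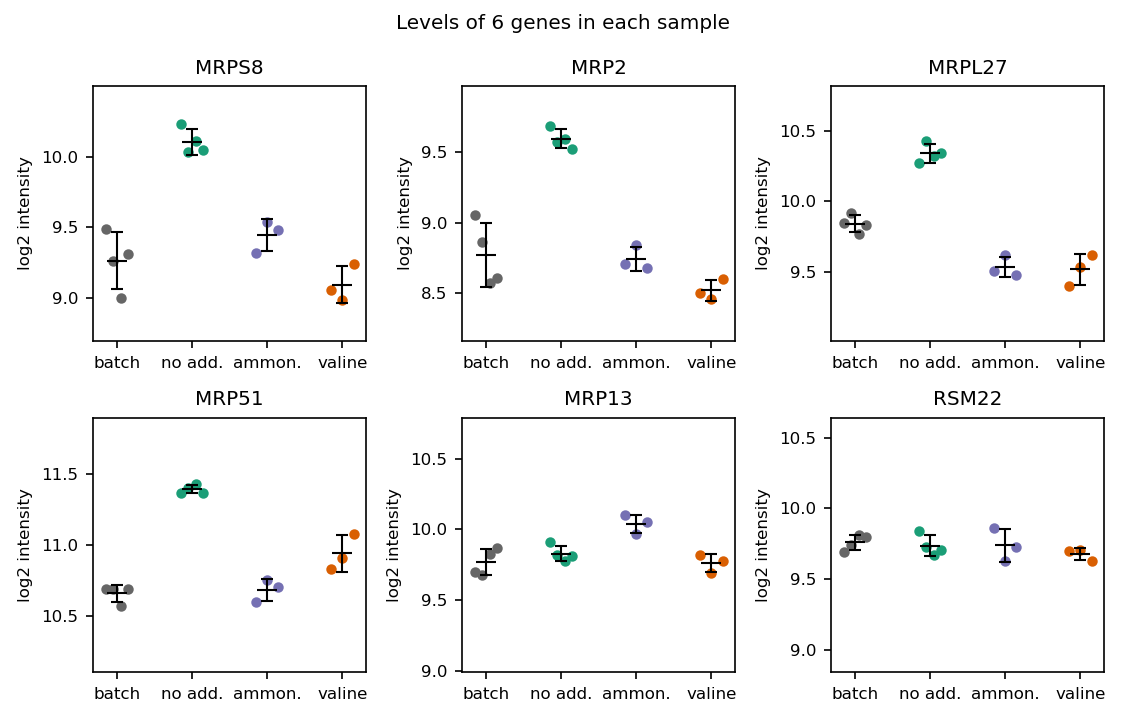
Log2 intensity of MRPS8, MRP2, MRPL27, MRP51, MRP13 and RSM22 in each sample (points) with the group mean and SD (bars) for batch, no addition, ammonium and valine, with 4, 4, 3 and 3 samples. MRPS8, MRP2, MRPL27 and MRP51 are highest without addition, MRP13 is highest with ammonium, and RSM22 lies between 9.63 and 9.86 in all samples.

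Ammonium and valine supplied the same amount of nitrogen, and 21 of 65 members were higher with ammonium than with valine, against 7.59% of all genes, while 1 was lower, against 8.79%. The median log2 difference was 0.18 (quartiles 0.07 and 0.28), beside 0.01 over all genes. In 35 members every ammonium sample lay above every valine sample, which held for 18.5% of all genes. The count of calls depended on single samples. Without ammonium sample 2 or 3 it was 10 in either direction, without valine sample 1 it was 11 and without valine sample 2 it was 7, whereas the median stayed between 0.15 and 0.21 when any 1 sample was left out. Without the 3 samples that deviated together it was 30. On slide 1 alone, with 1 ammonium array, the median was 0.20, and on slide 2 alone, with 1 valine array, it was 0.15. Shares of all genes called are not given for the fits with samples left out. A changed count in them is therefore not a result about the members in particular.

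Of the 21 members higher with ammonium than with valine, 14 belonged to the large and 7 to the small subunit. MRPL20, a mitochondria-specific large subunit protein, stood at 9.97, 9.99 and 9.98 with ammonium and at 9.51, 9.54 and 9.67 with valine. The groups did not overlap, and the difference was 0.41 ± 0.08 (adjusted p = 0.0038). RSM26 stood at 8.40, 8.62 and 8.55 with ammonium and at 8.15, 8.14 and 8.11 with valine, a difference of 0.39 ± 0.06 (adjusted p = 0.000641) with no overlap. MRPL4, the counterpart of L29 near the tunnel exit, was higher by 0.35 ± 0.08, and MRPL32 by 0.24 ± 0.05. These 4 members passed the test whichever single sample was left out.

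Other differences between the supplements were less firm. MRPL49 was higher with ammonium by 0.40 ± 0.11 (adjusted p = 0.0262), but the adjusted p was 0.0818 and 0.0739 without ammonium samples 2 and 3, and 0.0588 and 0.11 without valine samples 1 and 2. MRPS8 was higher by 0.35 ± 0.11 (adjusted p = 0.0404) and did not pass without ammonium sample 2 (0.121), ammonium sample 3 (0.108), valine sample 1 (0.115) or valine sample 2 (0.165), nor with slide as a block (0.0814). It also did not pass, with adjusted p between 0.0511 and 0.0543, without batch sample 2 or 4 or no-addition sample 2, 3 or 4. MRP1, which like RSM26 has the superoxide dismutase fold, was higher by 0.25 ± 0.07 (adjusted p = 0.0356), but its adjusted p lay between 0.0507 and 0.114 when any ammonium or valine sample other than ammonium sample 1 was left out. MRP13, at 0.27 ± 0.06, and MRPL11, the stalk protein corresponding to bacterial L10, at 0.22 ± 0.05, did not pass without valine sample 2 (0.059 and 0.0634).

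MRP51 was the member called lower with ammonium than with valine. It stood at 10.60, 10.75 and 10.70 with ammonium and at 10.83, 10.91 and 11.08 with valine, and the groups did not overlap. The difference was -0.26 ± 0.07 (adjusted p = 0.0183), with an adjusted p of 0.0699 without ammonium sample 1 and of 0.057 without valine sample 3.

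Relative to batch, the cultures fed with nitrogen showed smaller differences. With ammonium 15 members were higher than in batch, against 33.2% of all genes, and 10 were lower, against 35.5%, with a median log2 difference of 0.01. With valine 5 were higher, against 31.6%, and 27 lower, against 34.8%, with a median of -0.17. On slide 1 alone the calls numbered 8 for ammonium and 18 for valine, and on slide 2 alone 20 and 14. The 2 comparisons share the batch samples. RSM7, the counterpart of S7, was lower than in batch by 0.43 ± 0.06 with ammonium and by 0.53 ± 0.06 with valine. It did not pass the test between batch and no addition (0.11 ± 0.05, adjusted p = 0.0794). The adjusted p was 0.0325 without no-addition sample 3 and 0.0498 with array weights. MRPS16, at 11.67, 11.48, 11.21 and 11.31 in batch, was 10.96, 11.08 and 10.99 with ammonium and 10.70, 10.59 and 10.90 with valine, below every batch sample in both.

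MRP4, the counterpart of S2, was higher than in batch in all 3 continuous conditions. It stood at 9.81, 10.01, 9.91 and 9.96 in batch, and every other sample lay between 10.06 and 10.37. The differences from batch were 0.28 ± 0.07 without addition (adjusted p = 0.00217), 0.39 ± 0.07 with ammonium (adjusted p = 0.000186) and 0.31 ± 0.07 with valine (adjusted p = 0.00143). On slide 1 alone, with 1 array without addition and 1 with ammonium, the differences from batch were 0.17 and 0.26. On slide 2 alone, with 1 batch array, they were 0.24 without addition and 0.34 with valine. RSM22, which resembles methyltransferases, passed no test in any of the 6 comparisons. Its 95% intervals all lay between -0.21 and 0.21. RSM22 and MRP4 were singled out after their values were seen.

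The members varied together across the conditions. Over the 14 samples the median Pearson correlation between pairs of members was 0.71, beside 0.00 between pairs of all genes. Within the groups, on deviations from group means, it was 0.13, beside 0.00. The samples share arrays and slides, and these correlations are descriptions. The correlation with the median profile of the members was over 0.8 for 42 members, the highest being 0.99 for MRPL38, the counterpart of bacterial L14. It was under 0.2 for 4 members of the small subunit, RSM25 (-0.05), MRP13 (0.04), MRP4 (0.07) and RSM22 (0.13).

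Among the members, the size of the change followed the length of the gene. Coding lengths, from the RefSeq annotation of the R64 assembly, ran from 213 to 1887 bases over the 65 members with a median of 699. Across members, Spearman's rho between coding length and log2 difference was -0.59 for no addition against batch, 0.61 for ammonium against no addition and 0.68 for valine against no addition. Over 5192 genes with a length it was -0.16, 0.06 and 0.06. The 3 comparisons share samples, so these values are not independent of each other. They ranged from -0.55 to -0.60, from 0.55 to 0.64 and from 0.62 to 0.72 in the subunits taken apart. Related lists did not all share the relation. In the same 3 comparisons rho was -0.55, 0.16 and 0.03 over 13 mitoribosomal proteins with other names. It was -0.5, -0.11 and -0.11 over 13 mitochondrial tRNA synthetases. Cytosolic ribosomal protein genes had -0.2, 0.19 and 0.23, and respiratory chain and ATP synthase genes -0.27, 0.42 and 0.41.

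From batch to no addition the 22 shortest members (213 to 477 bases) had a median of 0.57 and all were higher, the 21 of middle length (486 to 801 bases) had 0.26, and the 22 longest (810 to 1887 bases) had 0.27 with 16 higher. Other genes of these lengths had medians of 0.16, 0.05 and 0.00. With valine against no addition the medians of the members were -0.81, -0.42 and -0.39, and with ammonium -0.59, -0.37 and -0.21. Other short genes thus moved the same way by less. Within the batch group the shortest members lay 0.24 above the group mean in sample 1 and at -0.21 from it in sample 3. Without batch sample 1, ammonium sample 2 and valine sample 3, rho was -0.63, 0.64 and 0.68. After each sample's trend with coding length over all genes was removed, rho was -0.29, 0.36 and 0.38, and the members' medians were 0.31, -0.35 and -0.47. The part of RNA quality in these relations was not tested.

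**Figure D3:**
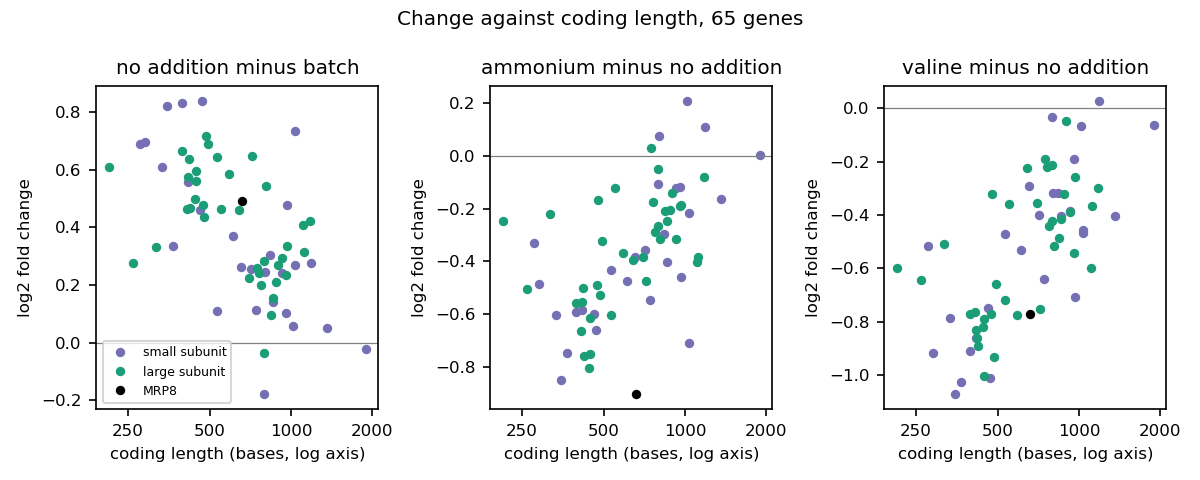
Log2 difference of each member (points) against its coding length in bases (logarithmic axis) for no addition against batch, ammonium against no addition and valine against no addition. Short members have the larger differences, with Spearman's rho of -0.59, 0.61 and 0.68 over 65 members.

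Other parts of the mitochondrial translation apparatus were described from lists of known genes. Among 13 measured mitoribosomal proteins with other names, 10 were higher without addition than in batch (median 0.43), 12 were lower with ammonium than without addition (median -0.41) and 13 were lower with valine (median -0.62). MHR1, which also acts in mitochondrial DNA recombination, changed by 0.60 ± 0.05, -0.84 ± 0.06 and -0.92 ± 0.06 in these comparisons. Of 9 translation factors 8 were called in each comparison, in the members' direction, with medians of 0.37, -0.56 and -0.75. TUF1, the mitochondrial elongation factor Tu, changed by 0.69 ± 0.05, -0.56 ± 0.05 and -0.79 ± 0.05. Of 13 mitochondrial tRNA synthetases, 10 were higher without addition than in batch, and 11 were lower with each supplement than without addition. Of all genes 30.3% were higher without addition than in batch, and 35.5% were lower with ammonium and 35.6% with valine.

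Activators of single mitochondrial messages were mixed. Of 15, 5 were higher and 2 lower without addition than in batch, and with ammonium 8 were lower and 1 higher than without addition. With valine 6 were lower and 1 higher. The shares higher than in batch (33.3%) and lower with valine (40.0%) were near those of all genes (30.3% and 35.6%). CBP6, needed for translation of the cytochrome b message, changed by 0.84 ± 0.09, -1.12 ± 0.10 and -1.41 ± 0.10 in the 3 comparisons. CBP1, which stabilises the cytochrome b message, changed the other way, by -0.42 ± 0.05, 0.52 ± 0.05 and 0.38 ± 0.05. Among 11 genes for mitoribosome assembly and membrane attachment, MRM1, a methyltransferase for the large ribosomal RNA, also opposed the members, at -0.40 ± 0.04, 0.27 ± 0.05 and 0.29 ± 0.05. In this list 4 genes were higher and 3 lower without addition than in batch, 4 lower and 1 higher with ammonium, and 9 lower and 1 higher with valine. From batch to no addition its shares, 36.4% higher and 27.3% lower, were near the 30.3% and 27.0% of all genes, as was its 36.4% lower with ammonium beside 35.5%.

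A list of 7 products of the mitochondrial genome, subunits of the respiratory chain and ATP synthase, did not share the higher level without addition. None was higher and 4 were lower than in batch (median -0.37), and with ammonium or valine 5 were lower than without addition (medians -0.41 and -0.45). The shares lower were 57.1%, 71.4% and 71.4%, against 27.0%, 35.5% and 35.6% of all genes. COX2, encoding a cytochrome oxidase subunit, had means of 10.32 in batch, 10.03 without addition, 9.04 with ammonium and 8.95 with valine. Its fall with ammonium was 0.99 ± 0.19 (adjusted p = 0.000274). VAR1, the mitochondrial ribosomal protein encoded in the mitochondrial genome, was counted above among the proteins with other names. It did not pass the test between batch and no addition (0.06 ± 0.21), and it fell by 0.66 ± 0.23 with ammonium and by 1.22 ± 0.23 with valine.

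Cytosolic ribosomal protein genes ran opposite to the mitochondrial ones in 3 of the 4 main comparisons. Of 135, 126 were lower and 0 higher without addition than in batch (median -0.60), 133 were higher with ammonium (median 1.12) and 129 with valine (median 0.92) than without addition. The 135 include RPP1, taken in by its name, which encodes a subunit of RNase P and not a ribosomal protein. Their median level was 12.24 to 12.42 in the batch samples, 11.50 to 11.80 without addition, 12.79 to 12.92 with ammonium and 12.66 to 12.73 with valine. Between ammonium and valine both sets had a positive median, 0.20 for cytosolic and 0.18 for mitochondrial ribosomal proteins. Nuclear genes of the respiratory chain and ATP synthase, with assembly factors that share their names, fell further than the mitochondrial ribosomal proteins after both supplements. Of 56, 53 were lower with ammonium and 53 with valine, with medians of -1.10 and -1.01, and 24 were higher and 8 lower without addition than in batch (median 0.17). Of all genes, 30.3% were higher and 27.0% lower without addition than in batch. With ammonium 32.1% of all genes were higher and 35.5% lower than without addition, and with valine 32.3% and 35.6%. Between the supplements the median of the respiratory chain and ATP synthase genes was 0.05. The differences between these sets were not tested.

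**Figure D4:**
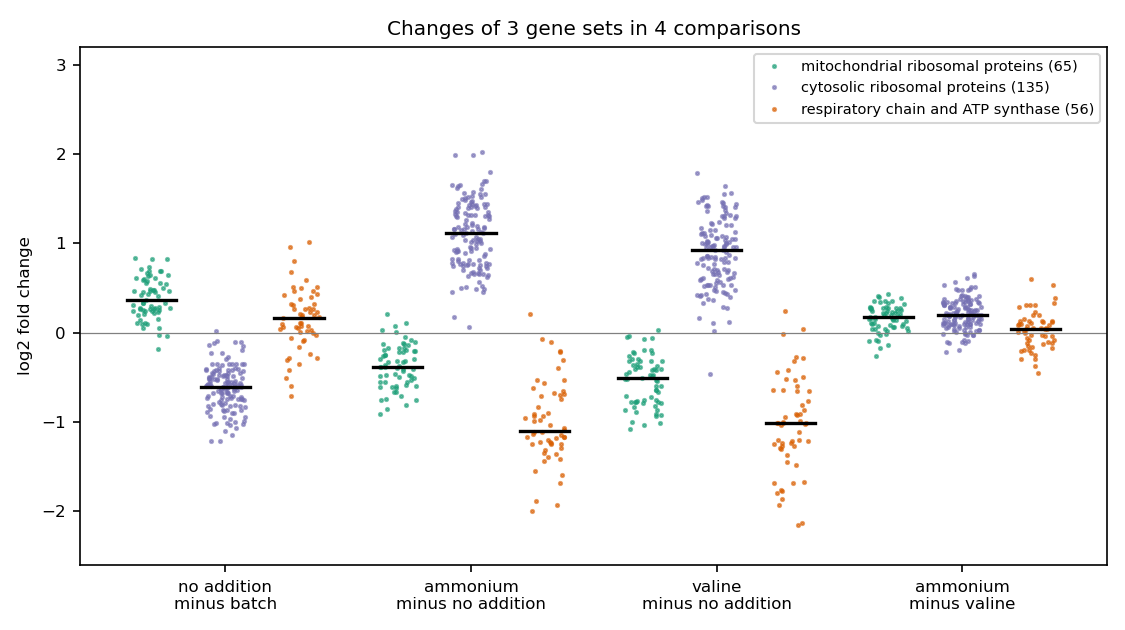
Log2 differences of 65 mitochondrial ribosomal protein genes, 135 cytosolic ribosomal protein genes (RPP1 included by its name) and 56 respiratory chain and ATP synthase genes (points) with the median of each set (black bar) in 4 comparisons. The medians of the mitochondrial ribosomal proteins are 0.37, -0.38, -0.51 and 0.18, and those of the cytosolic ones are -0.60, 1.12, 0.92 and 0.20.

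Transcripts of 6 regulators were measured, PUF3, HAP1, which encodes a haem-responsive activator, and HAP2 to HAP5. Without addition 1 was higher (HAP3, 0.25 ± 0.06) and 2 were lower (HAP2 and HAP4) than in batch. With ammonium 5 and with valine 6 were lower than without addition, with medians of -0.60 and -0.40. Of all genes, 30.3% were higher and 27.0% lower without addition than in batch. The shares of all genes lower than without addition were 35.5% with ammonium and 35.6% with valine. HAP4, the activating subunit of the Hap complex, had means of 12.35 in batch, 11.74 without addition, 10.09 with ammonium and 9.95 with valine, so its highest level was in batch and not without addition. PUF3 stood at 7.29, 7.15, 7.05 and 6.89, low on the arrays' range, which began at 5.50 to 5.56. It did not pass the test between batch and no addition (-0.14 ± 0.08) or with ammonium (-0.10 ± 0.09), and it was lower with valine than without addition by 0.26 ± 0.09 (adjusted p = 0.0184).

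The genes beside the members in the genome had calls in both directions. Of 34 measured genes that are divergent neighbours and so share an upstream region with a member, 11 were higher and 12 lower without addition than in batch (median -0.03). With valine 16 were higher and 10 lower than without addition (median 0.09), and with ammonium 14 were higher and 12 lower (median 0.03). Of 75 other measured neighbours, 26 were higher and 23 lower without addition than in batch, 33 higher and 25 lower with ammonium, and 31 higher and 24 lower with valine. Of all genes 30.3% were higher and 27.0% lower in the first comparison, 32.1% and 35.5% in the second and 32.3% and 35.6% in the third. MRPS12 and RSM19 are neighbours of each other.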

How the data were processed

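Total RNA was labelled with Cy3 and hybridised to 1-colour arrays, 16 in all. The authors deposited log2 intensities for each probe, a scale inferred from the values. R 2.13.1 and limma are named in the submitters' processing notes. How background was corrected and arrays were normalized is not given in the sources used here. Of 6271 probes 5220 carried 1 gene symbol; symbols were updated through the RefSeq table and probes averaged per gene, which left 6248 features with no intensity filter. The 2 arrays of ammonium sample 3, one on each slide, were averaged (SD between them 0.14 over the members). Slide 1 held 3 batch arrays, 1 without addition, 1 ammonium and 2 valine arrays, and slide 2 held 1, 3, 3 and 1. A sample whose labels name both ammonium and valine entered no comparison.

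Tests were two-sided and used lmFit and eBayes of limma 3.58.1 under R 4.3.3, with 1 mean per group, and were checked on simulated data. Errors are limma's SE, and SD where stated. Figures used Python 3.11.15 and matplotlib 3.10.9. Named members were the 4 largest called changes in each direction of the 4 main comparisons, called members against the majority, a panel of members with known roles, and members of small counts. From related lists came the smallest p-values and opposing genes. The members and all lists were chosen with earlier results of these data known. Alternatives changed the scaling, filter, slide, replicate block, samples, weights and coding-length trend. Same-numbered samples correlated between -0.57 and 0.31 in their deviations from group means, over 0.1 in 4 of 19 pairs, so the numbers were not taken to pair samples. Precision is limited by the number of arrays.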

Additional observations from a re-analysis of the deposited data

Results flagged for a closer look

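Among 54 groups of 4 samples, from the 26 named members and the members' median, 3 held a sample far from the other 3, where chance gives about 1 in 20. For MRP51 in batch, sample 3 stood at 10.57 and the others at 10.69. For MRP10 without addition, sample 3 stood at 9.41 and the others between 9.52 and 9.53. For MRPS16 without addition, sample 1 stood at 11.94 and the others between 11.68 and 11.70. In each case the gap to the nearest sample made up most of the group's range (0.929, 0.875 and 0.924 of it).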

How the results depend on the processing

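When 1 sample was left out at a time, members called ranged from 54 to 57 for no addition against batch, 47 to 56 for ammonium and 59 to 60 for valine against no addition, 7 to 30 for ammonium against valine, 18 to 29 for ammonium against batch and 27 to 36 for valine against batch. The medians ranged from 0.35 to 0.42, -0.39 to -0.36, -0.52 to -0.47, 0.15 to 0.21, 0.00 to 0.03 and -0.19 to -0.13. On slide 1 alone 28, 18, 44, 0, 8 and 18 members were called, with medians of 0.42, -0.32, -0.50, 0.20, 0.07 and -0.17. On slide 2 alone 48, 55, 58, 1, 20 and 14 were called, with medians of 0.37, -0.41, -0.52, 0.15, -0.02 and -0.12. With the replicate number as a block 14 members differed between ammonium and valine, and no other count moved by over 1.5 times; the numbers are not known to pair samples. Array weights gave 37 for that comparison. With only the groups compared in the fit, ammonium against batch had 17 calls. Shares of all genes called are not given for any of these alternatives. The counts of members called therefore have no background beside them, and a changed count can also reflect fewer or more arrays in the fit. Leaving out batch sample 1, ammonium sample 2 and valine sample 3, and removing the coding-length trend, were chosen after seeing the data: the median for no addition against batch was then 0.42 and 0.31. The median for ammonium against batch, 0.01, was -0.02 on slide 2 and -0.01 after the trend was removed; no cause was tested. Of 101 called differences of named members 53 passed in every alternative, and none changed sign; slide 1 alone, with few arrays, lost the most. Levels near the arrays' minimum or maximum have compressed differences.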

Other observations

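The sample titled as ammonium whose description and treatment name valine had a member median of 9.66. It held MRPS8 at 9.67, MRP2 at 8.89, MRPL27 at 9.66, MRP51 at 10.72, MRPL20 at 10.12 and RSM26 at 8.62. MRP13 stood at 9.98, MRP4 at 10.38, RSM22 at 9.60, MRPS16 at 11.16 and MRP8 at 10.68 in it. Of the 65 members, 50 lay below every sample without addition. The level fell within the range of the batch samples for 16 members, of the samples without addition for 6, of the ammonium samples for 12 and of the valine samples for 12. Shares over all genes were not computed for this sample, so these counts have no background beside them and only describe it.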
